A study of Mus musculus with 89 samples.

Results

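The genetically normal (euploid) embryos of the Ts65Dn and Ts66Yah mouse colonies serve as the controls of their trisomic littermates, and here they were set against each other. They make up 41 of the 89 arrays: 18 EupTs65Dn embryos and 23 EupTs66Yah embryos, chosen by the genotype label, with 1 further EupTs66Yah array (replicate 16) left out because its values spread far less than the others. In Ts65Dn mice, parts of mouse chromosomes 16 and 17 (Mmu16 and Mmu17) are present as an added, joined chromosome. Ts66Yah mice, derived from them, carry the Mmu16 part without the Mmu17 part, and the embryos labelled euploid should carry neither. All embryos were untreated and taken at embryonic day 18.5, brain hemispheres were dissected and frozen, and total RNA of each forebrain was measured on 1 Clariom S array. Each colony gave 6 litters. Labels gave 9 females and 9 males in EupTs65Dn, and 10 females and 13 males among the EupTs66Yah embryos used.

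Both strains were kept on a mixed C57BL/6 and C3H background, so embryos of 1 colony need not be genetically alike. Ts65Dn females were mated to B6EiC3Sn.BLiAF1/J hybrid males. The Ts66Yah colony descends from founder females of another laboratory on a B6C3B background, which were mated to males of the same hybrid type, and was then enlarged by in vitro fertilization. Colony, dissection and array batch coincide, and which of them a difference belongs to cannot be told apart. In bulk tissue, fewer cells of a type and less RNA per cell cannot be told apart either. As background, the embryonic brain is divided along its length by transcription factors: Dlx, Emx and Fezf genes mark parts of the forebrain, En and Pax genes the midbrain and anterior hindbrain, and Hox genes the posterior hindbrain and spinal cord. A forebrain dissection is separated from the midbrain by a cut. Levels of genes near that border may depend on where the cut lay or on how cells are patterned, and neither was tested.

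The deposited log2 values lay about 1 unit apart between the colonies, with array means of 5.29 to 5.31 in EupTs65Dn and 6.35 to 6.41 in EupTs66Yah, and a median difference of -1.06 over all probe sets. The 41 columns were therefore quantile-normalized together, which gives every array the same distribution, and all other values are on that normalized log2 scale. Only differences relative to the bulk of genes can be read from it. The Y-linked genes went against the sex label in 10 of the 41 embryos. EupTs66Yah replicate 24 had a mean of the Mmu16 genes of 7.75 on the deposited scale, against 7.13 to 7.46 in the other 22 embryos and a median of 7.71 in the labelled Ts66Yah embryos. EupTs66Yah replicates 9, 14, 17, 21 and 22 had a narrower spread of values than every Ts66Yah array. With the array left out put back, 5978 probe sets passed in place of the 10475 below, and 34 of 207 genes and probe sets chosen for naming no longer did, among them App, Emx1, Gad1, Penk, Hoxb1, Irx5, Sparcl1 and Pde10a (adjusted p from 0.17 to 0.88). Precision is limited by how many litters and arrays each colony has, and there was 1 colony of each kind.

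The comparison asked how far control forebrains of the colonies differ. Of 22206 probe sets, 10475 passed the threshold (47.2%) by limma with litter as a random block and Benjamini-Hochberg adjustment at 10%. In EupTs65Dn 5412 were higher (24.4%) and 5063 lower (22.8%). Centring each array on its median in place of quantile normalization gave 5785 higher and 7127 lower, and centring and scaling gave 4452 higher and 7241 lower. Most differences were small: the 5th and 95th percentiles were -0.52 and 0.48, and 135 probe sets both passed and differed at least 2-fold. Groups that did not overlap, with every embryo of one colony above every embryo of the other, were seen in 284 passing probe sets (1.28%). Of these 46 also differed at least 2-fold (0.207%), 24 higher and 22 lower in EupTs65Dn. Below, a difference is EupTs65Dn minus EupTs66Yah, every adjusted p is from that limma fit, and counts of list members are read against the 47.2% of all probe sets.

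Genes of midbrain and hindbrain identity were lower in EupTs65Dn, with 16 of 22 measured probe sets of the list lower, 2 higher and a median difference of -0.86. Over all probe sets the median difference was 0.0091. The mean of the list lay between 4.18 and 4.45 in the 18 EupTs65Dn embryos and between 4.53 and 5.84 in the 23 EupTs66Yah embryos, so that no embryo of one colony reached the range of the other. By litter it lay between 4.24 and 4.38 in EupTs65Dn, and between 4.74 (WT13) and 5.84 (WT11, 1 embryo) in EupTs66Yah. The EupTs66Yah embryos were also spread more widely among themselves. Leaving out the narrower arrays, replicate 24 or the embryos whose Y-linked genes went against the label gave 17, 16 and 17 lower members.

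En2 and En1 encode the engrailed factors that pattern the midbrain and anterior hindbrain. En2 ranged from 3.87 to 5.13 (median 4.44) in EupTs65Dn and from 5.36 to 7.51 (median 6.25) in EupTs66Yah. The groups did not overlap, and the difference was -1.72 (SE 0.15, 3.30-fold higher in EupTs66Yah, adjusted p = 1.34e-12). En1 ranged from 3.38 to 4.43 and from 4.25 to 7.29, with a slight overlap (difference -1.91, adjusted p = 2.63e-12). Pax5, a paired-box factor of the border between midbrain and hindbrain, had medians of 3.01 and 5.30 (difference -2.03), and its relative Pax2 differed by -1.61. Barhl1, a homeobox gene of cerebellar granule cell precursors and some midbrain neurons, had medians of 4.45 and 6.42 (difference -1.87). Atoh1, which also marks granule cell precursors, did not pass (difference -0.06, adjusted p = 0.79).

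Mab21l2, expressed in the embryonic midbrain roof and the eye, showed the largest difference among named genes without overlap. It ranged from 5.86 to 7.42 (median 6.77) in EupTs65Dn and from 8.09 to 10.54 (median 9.58) in EupTs66Yah. Litter means lay between 6.50 and 7.04 in the former and between 8.89 and 10.54 in the latter. The difference was -2.73 (SE 0.17, 6.65-fold, adjusted p = 7.06e-17). Outside the list, 4 further transcription factor and transporter genes were chosen after their values were seen, from the largest differences, with some overlap between the colonies. Tfap2b, a factor of midbrain and cerebellar neurons and of neural crest, was 9.80-fold higher in EupTs66Yah (medians 5.81 and 8.83). Shox2, a homeobox gene of thalamus and brainstem, was 5.35-fold higher (medians 4.48 and 6.86). Pou4f1, a factor of midbrain, habenular and sensory neurons, was 4.01-fold higher (medians 4.92 and 6.80). Slc6a5, the glycine transporter of inhibitory neurons in hindbrain and spinal cord, was 5.40-fold higher (medians 3.64 and 6.11).

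Further back along the axis, Hoxa5 ranged from 3.87 to 4.52 in EupTs65Dn, while EupTs66Yah fell into 12 embryos between 3.94 and 6.11 and 11 between 7.58 and 8.81. The levels went partly with litter: means were 8.65 in WT11 (1 embryo), 8.19 in WT12 (5 embryos), 5.47 in WT18 (5 embryos) and 4.14 in WT13 (2 embryos). The colony difference was -2.31 (SE 0.41, adjusted p = 1.19e-05). That fit used 1 litter correlation (0.021) for all probe sets, so the SE and p may understate the litter differences of this gene. Hoxa2, the Hox gene expressed farthest forward, differed by -1.50, Hoxb3 by -0.85 and Hoxb2 by -0.70, all lower in EupTs65Dn. Of 11 Hox probe sets of paralogues 1 to 5, 5 were lower and 1 higher (54.5% called), and of 22 of paralogues 6 to 13, 3 were lower and 5 higher (36.4%). Among the latter Hoxa10 was higher by 0.99 (medians 4.24 and 3.30, adjusted p = 1.07e-08), and Hoxa11 and Hoxd10 by 0.50 each, at dim signals. The higher one of the first set, Hoxb1, was near the threshold (difference 0.29, adjusted p = 0.092), and centring on the median turned its sign (-0.033). The Iroquois homeobox genes, which pattern midbrain, hindbrain and spinal cord, had lower means in 6 of 6 members, and 4 of 6 passed: Irx2 (-1.90), Irx1 (-1.64, no overlap), Irx3 (-1.37) and Irx5 (-0.40). The Hox and Iroquois families were examined after values were seen. Irx5 no longer passed without the embryos whose Y-linked genes went against the label (adjusted p = 0.19).

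The same list holds 4 genes of dopamine and serotonin neurons, and these 4 were lower in EupTs65Dn. The dopamine transporter gene Slc6a3, of midbrain dopamine neurons, differed by -1.62 (adjusted p = 1.11e-07), and Th, the enzyme that makes the dopamine precursor, by -0.60. Tph2, which starts serotonin synthesis in the raphe, differed by -1.08 and the serotonin transporter gene Slc6a4 by -0.96. Gbx2 went the other way: this homeobox gene of the anterior hindbrain, and later of the thalamus, was higher in EupTs65Dn (medians 6.49 and 5.21, difference 1.24, adjusted p = 7.74e-09). In the list of diencephalon and hypothalamus 5 of 21 probe sets were higher and 6 lower (median difference -0.036, and -0.20 with arrays centred and scaled). There Avp, the vasopressin gene of hypothalamic neurons, was higher by 0.83 and Rax, a hypothalamic homeobox gene, by 0.78, while a probe set of Rora, a nuclear receptor of thalamic and cerebellar neurons, differed by -0.72.

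**Figure D1:**
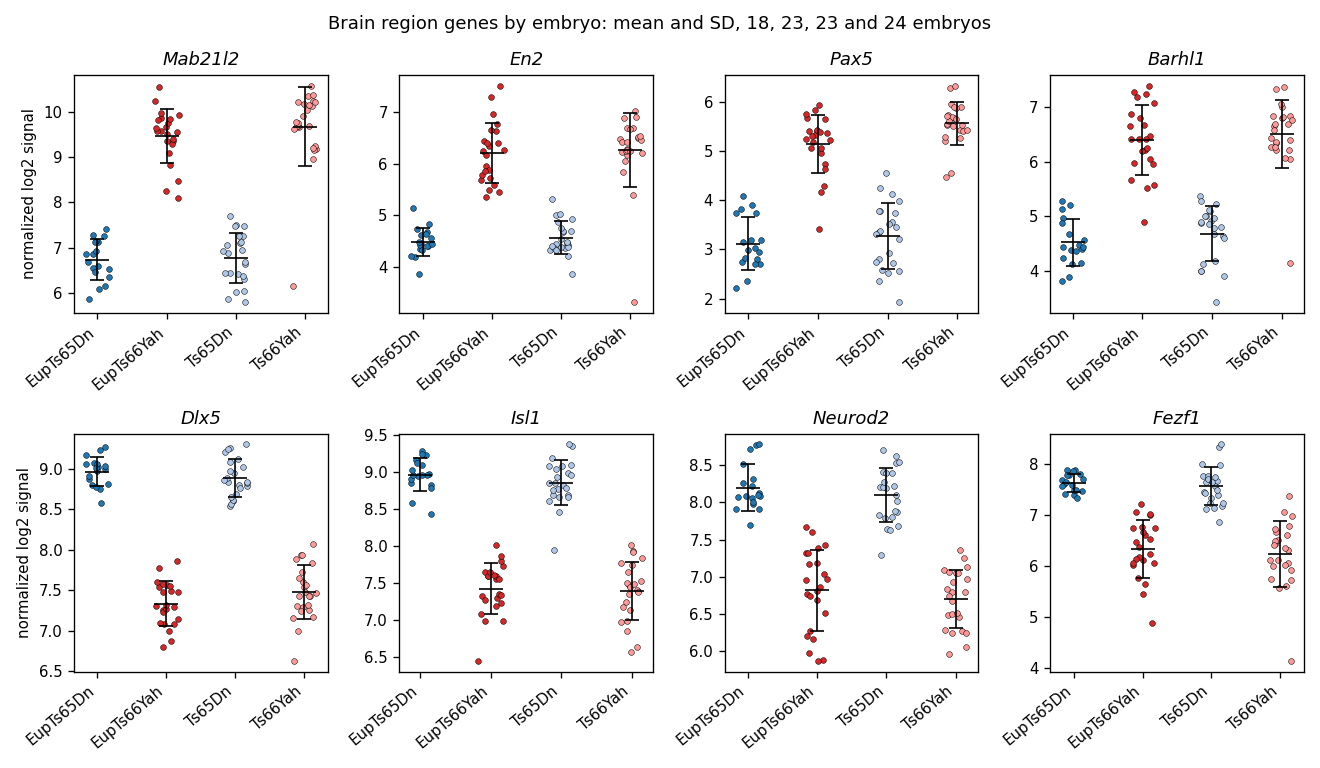
Normalized log2 signal of 8 region genes, 1 point per embryo in EupTs65Dn (18), EupTs66Yah (23), Ts65Dn (23) and Ts66Yah (24), with the mean and SD as a line and bars. In the euploid embryos the upper row (Mab21l2, En2, Pax5 and Barhl1) is higher in EupTs66Yah and the lower row (Dlx5, Isl1, Neurod2 and Fezf1) in EupTs65Dn, and embryos labelled trisomic lie near the euploid embryos of their colony except for 1 Ts66Yah embryo low in Mab21l2, En2 and Barhl1.

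Most genes of the GABAergic interneuron list were higher in EupTs65Dn. Of its 20 probe sets 12 were higher and 4 lower (median difference 0.50), and the list mean lay between 7.67 and 7.89 in EupTs65Dn against 7.12 to 7.55 in EupTs66Yah. Dlx5, a homeobox gene of migrating and differentiating interneurons, ranged from 8.57 to 9.27 (median 9.01) and from 6.79 to 7.86 (median 7.31). The groups did not overlap, and the difference of 1.64 (SE 0.078, 3.11-fold) was the most significant of the list (adjusted p = 4.28e-20). Its relatives Dlx1 and Dlx2 were higher by 0.71 and 0.47, and Dlx1as, a transcript of the Dlx1 locus, by 1.29 without overlap. Whether the array's probes separate Dlx1 from Dlx1as was not tested. Dlx6, the neighbour of Dlx5, did not pass (difference 0.19, adjusted p = 0.12), but did with arrays centred on the median (0.29, adjusted p = 0.0145).

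The serotonin receptor gene Htr3a, of a class of late-born interneurons, was higher by 1.30 without overlap, and the factors Sp9 (0.73), Sp8 (0.69), Lhx6 (0.65) and Nkx2-1 (0.62) of ventral progenitors and their offspring were higher too. The enzymes that make GABA moved apart, with Gad2 higher (0.52) and Gad1 lower (-0.48). Slc32a1, the vesicular GABA transporter gene, and Erbb4, a receptor gene of interneurons, were also lower, by 0.36 and 0.47 on the log2 scale. Sst and Npy, neuropeptide genes of interneurons, did not pass (differences -0.06 and 0.11). Isl1, a homeobox gene of developing striatal and cholinergic neurons, ranged from 8.43 to 9.29 and from 6.45 to 8.01, without overlap (difference 1.54, 2.91-fold, adjusted p = 8.59e-17). The striatal list as a whole had 6 higher and 6 lower of 15 probe sets (7 and 3 with arrays centred on the median): the dopamine receptor genes Drd2 (0.59) and Drd1 (0.44) were higher and the neuropeptide genes Tac1 (-0.39) and Penk (-0.33) lower.

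Forebrain identity genes were higher in 7 and lower in 2 of 11 measured probe sets (median difference 0.41). Fezf1, a zinc finger factor of forebrain precursors, ranged from 7.34 to 7.88 in EupTs65Dn and from 4.88 to 7.22 in EupTs66Yah, without overlap (difference 1.30, adjusted p = 4.08e-10). Its paralogue Fezf2, of deep-layer cortical neurons, differed by -0.01 (adjusted p = 0.91). The cortical factors Emx1 (0.51) and Lhx2 (0.41) were higher, whereas Emx2 was lower (medians 7.11 and 7.79, difference -0.66, adjusted p = 3.75e-07). Neurod2, a bHLH factor of maturing cortical projection neurons, ranged from 7.70 to 8.78 and from 5.87 to 7.67, again without overlap (difference 1.38, 2.61-fold). The wider list of cortical excitatory neurons held 8 higher and 4 lower of 18 probe sets with a median difference of 0.073, which was 0.22 with arrays centred on the median and 0.011 with arrays centred and scaled. Its layer factors Tbr1 and Bcl11b, like Fezf2, did not pass (adjusted p = 0.96 and 0.92), while Pou3f2 (0.64) and Crym (0.60) were higher.

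Intermediate progenitors, the dividing cells that give rise to many cortical neurons, had 7 higher and 1 lower of 10 probe sets (median difference 0.52). Insm1, a zinc finger factor of neurogenic divisions, had medians of 6.53 and 5.79 (difference 0.83, adjusted p = 7.99e-06), and the proneural gene Neurog2 medians of 6.08 and 5.22 (difference 0.78). Eomes, their defining factor, did not pass (difference 0.14, adjusted p = 0.30), but did with arrays centred on the median (0.25, adjusted p = 0.049). Cajal-Retzius cell genes split: Reln, the secreted signal of these early cortical neurons, was higher (0.44) and so was Trp73 (0.60), yet 6 of 9 were lower (median difference -0.37). The lower members included Ebf3 (-1.73, no overlap) and Lhx1 (-0.96), which brainstem neurons express too. Trp73 no longer passed with arrays centred on the median (adjusted p = 0.21).

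**Figure D2:**
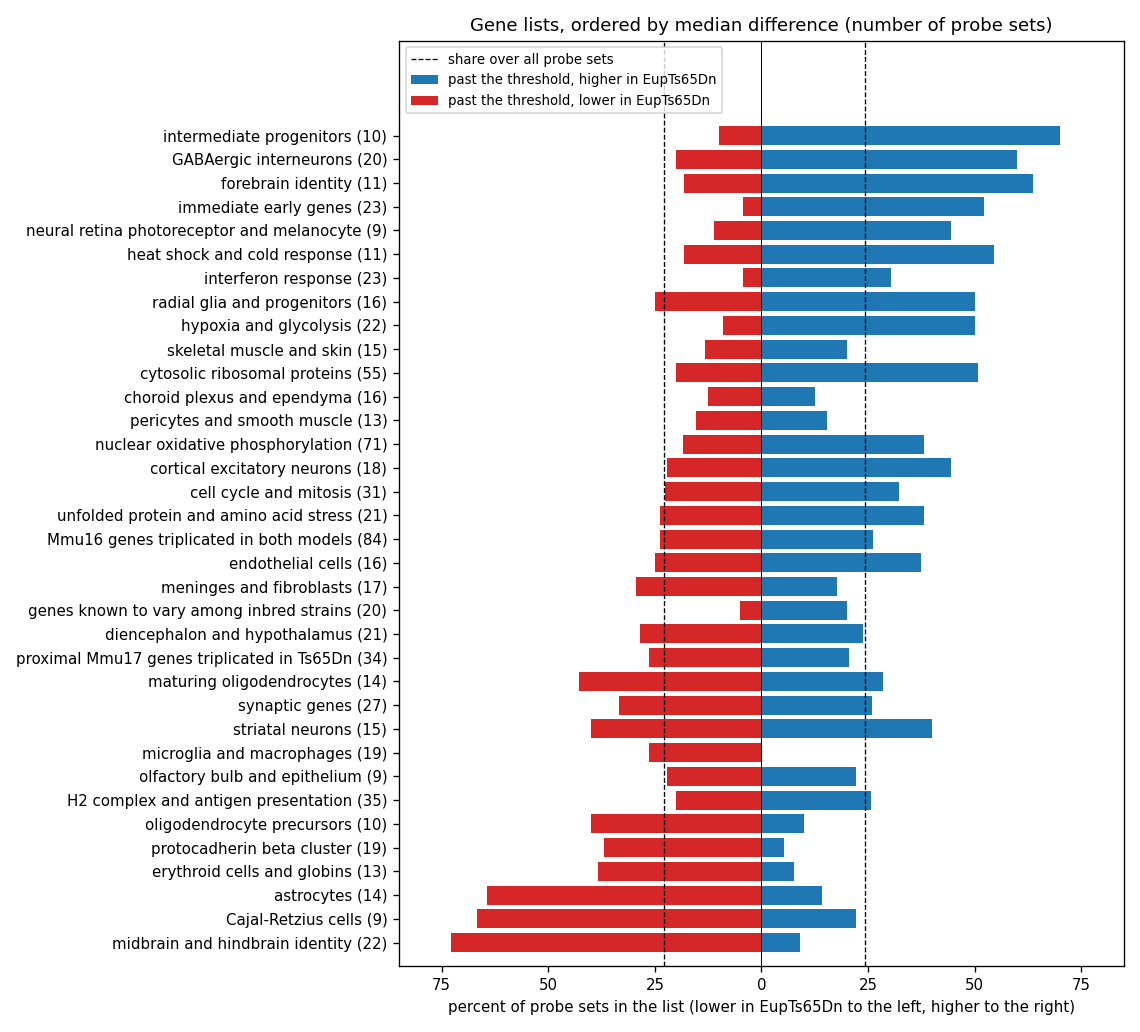
Percent of the probe sets of each gene list past the threshold, higher in EupTs65Dn to the right and lower to the left, with lists ordered by median difference and the number of probe sets in brackets. Dashed lines are the shares over all probe sets (24.4% higher and 22.8% lower). The midbrain and hindbrain list has 16 of 22 lower and the intermediate progenitor list 7 of 10 higher.

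Among non-neuronal cells, astrocyte genes were lower in EupTs65Dn in 9 and higher in 2 of 14 probe sets (median difference -0.23, and -0.12 with 6 lower and 1 higher when arrays were centred on the median). Aqp4, the water channel of astrocyte endfeet, ranged from 6.97 to 7.69 in EupTs65Dn and from 7.84 to 9.24 in EupTs66Yah, without overlap (difference -1.21, adjusted p = 2.83e-14). The angiotensinogen gene Agt (-0.83) and Sparcl1 (-0.59, no overlap), both of astrocytes, were lower, as was Aldh1a1 (-1.35), a retinoic acid enzyme gene that midbrain dopamine neurons express too. Gfap, the intermediate filament gene of mature astrocytes, did not pass (difference 0.02, adjusted p = 0.93). Levels of the midbrain and hindbrain list moved with these genes between the colonies, and its part in the astrocyte difference was not tested.

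Maturing oligodendrocytes had 4 higher and 6 lower of 14 probe sets, with a median difference of -0.071, so the list did not move in 1 direction. Gjc3, a connexin gene (-1.30), and Mbp, the myelin basic protein gene (-0.62), were among the 6 lower ones. The 4 higher ones are not named here. Of 19 microglia and macrophage probe sets 5 were lower and 0 higher at the limma threshold, a smaller share than over all probe sets, with P2ry12, a microglial receptor gene, at -0.37. Genes of vessels, coverings and blood passed no more often than the background of 47.2%, except endothelial genes (6 higher and 4 lower of 16). For choroid plexus and ependyma 2 were higher and 2 lower of 16, for meninges and fibroblasts 3 and 5 of 17, for pericytes 2 and 2 of 13, and for erythroid cells 1 and 5 of 13. Ttr, the transthyretin gene of the choroid plexus, lay between 11.70 and 12.19 in EupTs65Dn and between 11.19 and 12.15 in EupTs66Yah and did not pass (difference 0.12, adjusted p = 0.16). The list means of these cell types overlapped between the colonies.

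Several abundant neuronal genes were lower in EupTs65Dn without overlap. Nova1, a neuronal splicing regulator, ranged from 9.15 to 9.74 and from 10.71 to 11.44 (difference -1.71, SE 0.063, 3.27-fold). Nap1l5, an imprinted histone chaperone gene, ranged from 8.95 to 9.43 and from 9.98 to 10.73 (difference -1.24). Nefm, a neurofilament subunit of long axons, had medians of 8.76 and 10.44 (difference -1.61), and Sncg, the gamma-synuclein gene of brainstem and sensory neurons, medians of 6.13 and 8.04 (difference -1.97). Cdr1 (-1.22), the sodium channel gene Scn2a (-1.18), the potassium channel gene Kcnk9 (-1.12) and the diacylglycerol kinase gene Dgkk (-1.12) belonged to the same set. Eno1b, a single-exon copy of the glycolytic enzyme gene Eno1, reached at most 5.79 in EupTs65Dn (median 5.30) and ranged from 6.67 to 7.64 in EupTs66Yah (difference -1.84, SE 0.064). Since Eno1b and Eno1 are nearly identical, which of them its probe set reads is uncertain.

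On the other side, Rnps1, an RNA-binding protein of the exon junction complex, ranged from 8.83 to 9.88 in EupTs65Dn and from 7.41 to 8.45 in EupTs66Yah (difference 1.37). Miat, a long noncoding RNA of neural progenitors and retina, had medians of 7.23 and 5.69 (difference 1.49), and Grp, the gene of gastrin-releasing peptide, medians of 7.57 and 6.01 (difference 1.44). Ccdc177 (1.26) and Srd5a3 (1.15), a gene of protein glycosylation, did not overlap either. Among dim probe sets, Hapln4, a link protein gene of the perineuronal matrix, differed by 1.13 (at the 25.3rd percentile of signal), and Gkn1, Olfr676 and Prl8a1, genes of stomach, nose and placenta, by 1.21, 1.17 and 1.87 (at the 23.7th, 33.8th and 12.7th percentile). Rplp1, a stalk protein of the ribosome, was higher by 0.85, Rpl38 by 0.69, the ATP synthase gene Atp5d by 0.67 and the cytochrome oxidase gene Cox6a1 by 0.62, each without overlap. As lists, 28 of 55 cytosolic ribosomal probe sets were higher and 11 lower (median 0.11), and 27 of 71 of oxidative phosphorylation higher and 13 lower (median 0.076), but with arrays centred and scaled both medians turned to about -0.02.

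Immediate early genes, induced within minutes by neuronal activity or handling, were higher in EupTs65Dn in 12 and lower in 1 of 23 probe sets (median difference 0.26, and 0.13 with arrays centred and scaled). Per embryo the list mean lay between 5.87 and 6.14 in EupTs65Dn and between 5.41 and 5.97 in EupTs66Yah. Dusp1, a phosphatase gene of this class, had medians of 9.16 and 8.54 (difference 0.65, adjusted p = 2.9e-10), and Npas4, induced by calcium entry into neurons, differed by 0.52 (not past the threshold with arrays centred on the median, adjusted p = 0.38). Fos and Egr1, the best known members, did not pass (0.10 for each), and Jun was lower (-0.37). Of 3 Egr3 probe sets 1 was higher by 1.32, 1 by 0.26 and 1 did not differ (0.00, adjusted p = 0.98), so probes of this gene disagreed. Of hypoxia and glycolysis genes 11 of 22 were higher and 2 lower (median 0.15), with Ndrg1 at 0.52 and Adm at 0.48 (adjusted p = 0.102 with litter means), and with arrays centred and scaled that median was 0.028.

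Gene length ran through the colony difference. Over 10136 named probe sets at or above the median signal, split into 5 equal groups by the length of the gene in the RefSeq table (GRCm38.p6), the median difference was 0.10 for the shortest group and 0.079, 0.017, -0.033 and -0.12 for the following ones. The median lengths of the groups were 4.86, 13.9, 26.7, 52.9 and 153 kb. The share higher in EupTs65Dn went from 43% in the shortest to 17.6% in the longest, and the share lower from 17.2% to 44.9%. Genes that were higher without overlap had a median length of 12 kb (125 genes), and those lower without overlap 92.1 kb (135 genes). Across these genes, which are not independent replicates, Spearman's rho between length and difference was -0.27. The gap between the shortest and the longest group was 0.22, and lay between 0.205 and 0.242 under 26 other settings, the scalings included. Long genes are, as background, often neuronal, and what part RNA quality, amplification or cell makeup had in this pattern was not tested.

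**Figure D3:**
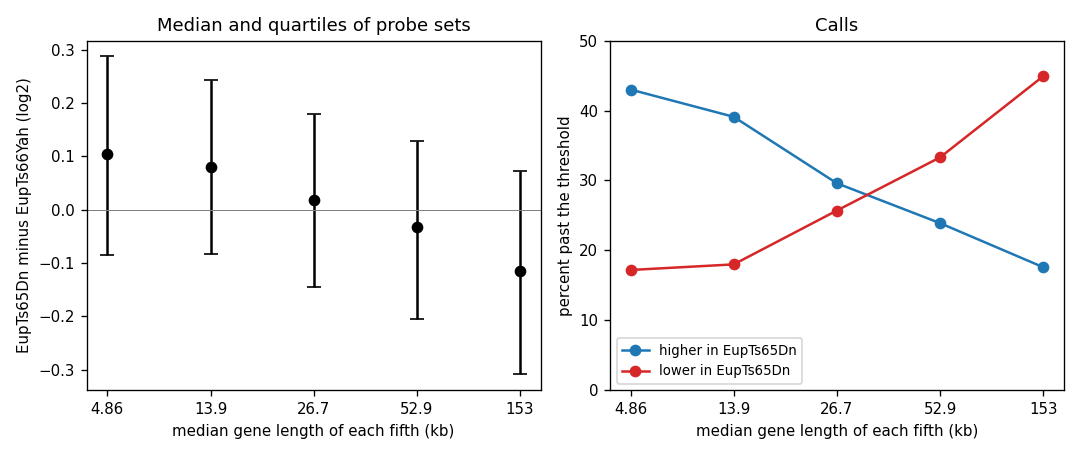
Left, median and quartiles of the difference EupTs65Dn minus EupTs66Yah (log2) for 5 equal groups of probe sets by gene length, at or above the median signal, with the median length of each group in kb below. Right, the percent of each group past the threshold in each direction. The median falls from 0.10 to -0.12 from the shortest to the longest group.

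Some genes of families known chiefly from the placenta were high in many EupTs66Yah embryos. These families were examined after their values were seen. The Psg genes encode pregnancy-specific glycoproteins of trophoblast, and 9 of 13 probe sets were lower and 1 higher in EupTs65Dn (76.9% called). Among the 9, Psg16 is also known from brain and had medians of 5.47 and 6.07 (difference -0.76). Psg23 ranged from 1.52 to 3.85 (median 2.18) in EupTs65Dn and from 1.88 to 8.43 (median 5.36) in EupTs66Yah, where 15 of 23 embryos lay above every EupTs65Dn embryo (difference -2.78, adjusted p = 1.08e-05). Psg21 had medians of 3.01 and 5.12, with 10 of 23 above every EupTs65Dn embryo. The prolactin-family genes Prl8a6 and Prl8a9 had medians of 2.02 and 5.14, and of 2.72 and 4.63, with 11 and 13 of 23 above.

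The same embryos carried these signals: 9 of the 23 were above every EupTs65Dn embryo for all of Psg21, Psg23, Prl8a6 and Prl8a9, and 15 for at least 1. EupTs65Dn replicate 9 was itself raised for Psg21 (5.415), Psg23 (3.85) and Prl8a6 (5.215), against EupTs65Dn medians of 3.01, 2.18 and 2.02, but not for Prl8a9 (2.52). As the highest EupTs65Dn embryo it set the level to exceed for those genes, so the counts depend on it. The 15 came from 6 of 6 litters, with 4 of 5 embryos in WT12, 3 of 6 in WT19, 3 of 5 in WT18, 3 of 4 in WT15, 1 of 2 in WT13 and the single embryo of WT11. In the trisomic littermates 18 of 24 Ts66Yah embryos and 0 of 23 Ts65Dn embryos lay above that EupTs65Dn level for Psg23, with the trisomic arrays normalized on their own. Over the whole prolactin family 8 of 24 probe sets were higher and 4 lower in EupTs65Dn, and Prl2c1 (1.06) and Prl8a1 were higher without overlap. Of the 12 of 23 embryos low for Hoxa5 and the 12 of 23 below the widest gap in Prl8a9, 6 were shared. No link between the genes is read from that count. Whether tissue carried over, RNA in the sample or cross-hybridization had a part was not tested.

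The embryos labelled trisomic, which the selection did not use, gave a second view of the colony difference, though they share litters, colony and array batch with the euploid embryos. Of these 47, Ts66Yah replicates 13 and 24 and Ts65Dn replicate 18 had Mmu16 means on the deposited scale (7.35, 7.33 and 6.34) nearer to the euploid level of their colony (medians 7.35 and 6.33) than to the trisomic one (medians 7.71 and 6.71). In the difference Ts65Dn minus Ts66Yah 10815 probe sets passed (48.7%), and 22 of them did not overlap and differed at least 2-fold (0.0991%). Of the euploid calls 76.6% were called in the same direction in trisomic embryos, and of the trisomic calls 74.2% in euploid ones, with 17 in opposite directions. Each of the 46 genes and unnamed probe sets without overlap and 2-fold apart passed in the same direction, and 17 of the 46 again did not overlap and differed 2-fold. Without the 3 embryos at the euploid level 10530 probe sets passed (47.4%), and the counts of 46 and 17 were the same. Mab21l2 differed by -2.92 in the trisomic embryos, En2 by -1.72, Dlx5 by 1.42 and Eno1b by -1.92. Ts66Yah replicate 12 stood apart, with Mab21l2 at 6.15 and En2 at 3.32, inside or below the Ts65Dn ranges of 5.79 to 7.69 and 3.86 to 5.31.

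**Figure D4:**
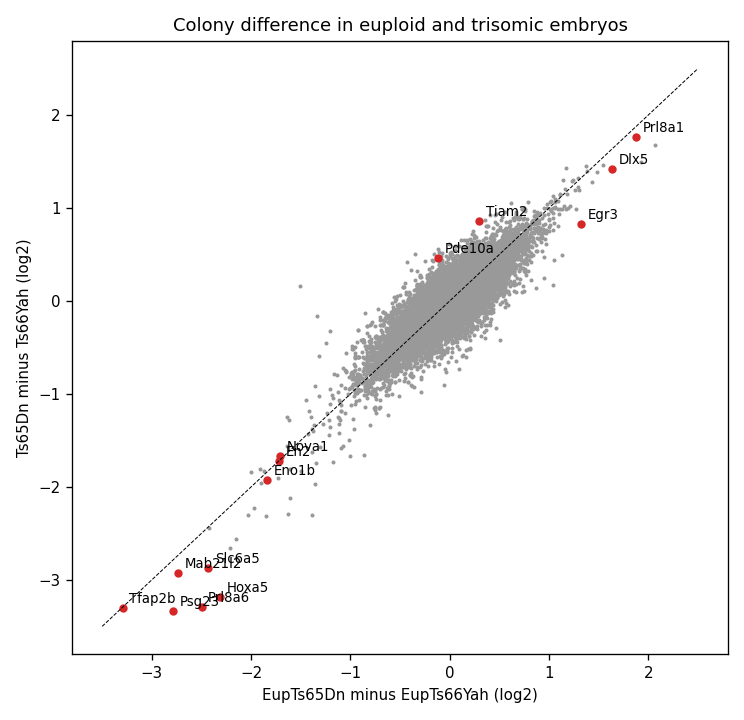
Colony difference in log2 of each of 22206 probe sets in euploid embryos (horizontal) and in trisomic embryos (vertical), with named genes in red and a dashed line of equal values. Mab21l2, Hoxa5 and Psg23 lie low on both axes and Dlx5 high on both, while Pde10a and Tiam2, of the part of Mmu17 that is extra in Ts65Dn, lie above the line.

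Of the genes that are extra in the trisomic animals, 22 were higher and 20 lower of 84 Mmu16 probe sets, and 7 higher and 9 lower of 34 Mmu17 probe sets, shares near the background of 47.2%. Without EupTs66Yah replicate 24, whose Mmu16 genes lay at the trisomic level, 26 of the Mmu16 probe sets were higher and 20 lower. App, the amyloid precursor gene, was higher in EupTs65Dn by 0.20 (medians 11.38 and 11.16, adjusted p = 5.99e-05), but not past the threshold with arrays centred and scaled (0.056, adjusted p = 0.36). Dscam, an adhesion gene of neurite self-avoidance, ranged from 8.15 to 8.74 and from 9.26 to 10.04, without overlap (difference -1.02). The ubiquitin ligase gene Ttc3 was also lower without overlap (-0.73). The phosphodiesterase gene Pde10a, of the Mmu17 part, differed by -0.12 in euploid embryos (adjusted p = 0.0785; 0.90 with arrays centred on the median) and by 0.46 in trisomic ones.

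For genes known to vary among inbred strains 4 of 20 probe sets were higher and 1 lower, a smaller share than the background. Glo1, whose copy number differs among strains, did not pass (difference -0.07, adjusted p = 0.74), but varied inside both colonies, from 8.83 to 10.46 in EupTs65Dn and from 9.15 to 10.40 in EupTs66Yah. The GABA receptor gene Gabra2, which carries a C57BL/6J variant, did not pass either (-0.08, adjusted p = 0.42). In the H2 complex, the mouse histocompatibility region, and antigen presentation 9 of 35 probe sets were higher and 7 lower (45.7% called, near the background). B2m, the light chain of class I molecules, had medians of 8.89 and 7.74 (difference 1.05, 2.07-fold, adjusted p = 1.92e-09), and H2-DMa, which loads peptides on class II molecules, medians of 4.83 and 3.98 (difference 0.93). The groups overlapped for both. The protocadherin beta genes, adhesion molecules of neuronal identity, were lower in 7 and higher in 1 of 19 probe sets, with Pcdhb17 at -0.89. The other 11 did not pass, the share called (42.1%) was below the background, and the median difference was -0.16.

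Some genes separated embryos of 1 colony. A split was counted where the widest gap between neighbouring embryos reached 1 on the log2 scale with at least 3 embryos on each side. It was found for 16 probe sets in EupTs65Dn and 23 in EupTs66Yah, 9 of them in both. Probe sets of the Y chromosome made up 5 and 10 of these. Not all of them split as Uty did, which was low in 9 and high in 9 EupTs65Dn embryos and low in 8 and high in 15 EupTs66Yah embryos. In EupTs66Yah 6 unnamed Y probe sets were low in 20 embryos and high in 3, and a pair of these 6 had the same gap and ranges. In EupTs65Dn an unnamed Y probe set was low in 3 and high in 15. An Mmu4 cluster of Gm3893, 4933409K07Rik, Fam205a copies and unnamed probe sets accounted for 9 and 5. Of these, 4933409K07Rik and an unnamed probe set had the same gap and ranges in each colony, so the counts are not of separate measurements throughout. Fam205a genes are a family of near copies, and the promoters of a pair of them are given as an example. Below are Fam205a1 (chr4:42853839-42854138, minus strand) and Fam205a2 (chr4:42528188-42528487, minus strand), each 300 bases around the start of the gene, from RefSeq on GRCm38.p6. Capitals mark the longest run shared by both, 101 bases, and position by position 239 of 300 bases were identical (79.7%). That count allowed no gaps, so stretches that both share at shifted positions counted as different. It is therefore not the identity of an alignment.
Fam205a1: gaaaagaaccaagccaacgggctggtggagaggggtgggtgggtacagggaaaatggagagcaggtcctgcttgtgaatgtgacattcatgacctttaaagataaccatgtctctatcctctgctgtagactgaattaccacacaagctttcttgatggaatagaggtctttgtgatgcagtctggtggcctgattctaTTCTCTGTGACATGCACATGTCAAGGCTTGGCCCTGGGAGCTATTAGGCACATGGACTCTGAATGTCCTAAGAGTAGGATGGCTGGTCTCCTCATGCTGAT
Fam205a2: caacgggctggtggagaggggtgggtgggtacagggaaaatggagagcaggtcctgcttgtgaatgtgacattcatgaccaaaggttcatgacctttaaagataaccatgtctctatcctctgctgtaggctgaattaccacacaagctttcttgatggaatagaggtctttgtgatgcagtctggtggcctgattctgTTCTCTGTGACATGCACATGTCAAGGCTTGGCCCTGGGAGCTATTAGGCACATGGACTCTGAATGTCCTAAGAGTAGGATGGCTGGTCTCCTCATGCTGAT
These are bases around the start of the gene, not the stretches that the array's probes read. Whether 1 probe set reads several copies was not tested.

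Gm3893 lay between 3.59 and 6.09 in 7 EupTs65Dn embryos and between 7.58 and 8.56 in the other 11. The 7 low embryos came from TS18 (3 of 3), TS113 (3 of 4) and TS42 (1 of 2), and the same 7 were low for 7 probe sets of the cluster. In EupTs66Yah 4933409K07Rik lay between 3.77 and 5.17 in 8 embryos and between 6.90 and 8.13 in 15. These 8 came from WT15 (3 of 4), WT12 (2 of 5), WT11 (1 of 1), WT18 (1 of 5) and WT19 (1 of 6). They were the low embryos for 4 probe sets there, among them 4933409K07Rik and the unnamed probe set with the same gap and ranges. Both levels thus occurred in both colonies, and the colony means did not differ past the threshold (Gm3893 difference -0.35, adjusted p = 0.66, and 4933409K07Rik -0.07, adjusted p = 0.91).

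**Figure D5:**
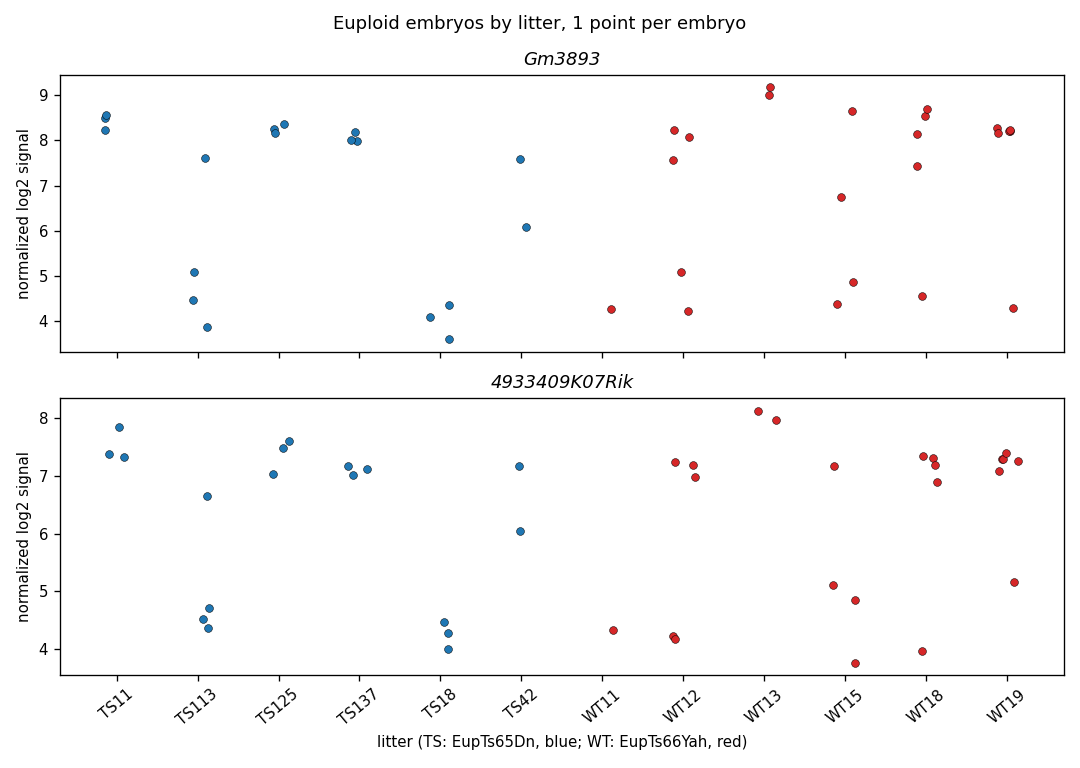
Normalized log2 signal of Gm3893 and 4933409K07Rik in each euploid embryo, by litter, with EupTs65Dn litters in blue and EupTs66Yah litters in red. Embryos fall into low and high levels, both present in TS113, WT12, WT15, WT18 and WT19. TS18 and the single embryo of WT11 are low alone, and TS11, TS125, TS137 and WT13 hold high embryos alone. TS42 holds both levels for Gm3893 and high embryos alone for 4933409K07Rik.

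Other splits were seen in 1 colony. Outside the Y chromosome the widest of these was in EupTs66Yah, for a pair of unnamed X chromosome probe sets (gaps 2.94 and 1.88). Both were low in the same 9 embryos and high in 14, and their widest gaps in Ts66Yah embryos were 3.38 and 2.70. Pop4, a subunit gene of RNase P, was low in 4 EupTs65Dn embryos (8.52 to 8.65) and high in 14 (9.67 to 10.49). In EupTs66Yah Masp2, a complement protease gene, was low in 3 embryos (2.61 to 3.75) and otherwise between 5.32 and 7.14. Myo7a, an unconventional myosin gene, was low in 3, the lowest at 5.64, and at 7.41 or above in 20. Fancd2, a DNA repair gene, was low in 4 (2.30 to 3.03), and these 4 were among the 5 narrower arrays. None of these named splits recurred in the trisomic littermates. The widest gap there was 0.42 for Pop4 in Ts65Dn, and 0.44, 0.54 and 0.22 for Masp2, Myo7a and Fancd2 in Ts66Yah. No probe set passed for a colony effect that differs by labelled sex, a label that Y-linked genes went against in 10 of the 41 embryos: 0 of 22206 in limma (0%), with 1031 at an unadjusted p under 0.05. Without those 10 embryos the count was 0 as well.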

How the data were processed

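Forebrain RNA of 89 mouse embryos was measured on Clariom S high throughput arrays, 1 per embryo. The deposited log2 values are probe set signals summarised by RMA, per the submitters' processing notes; for its version, its settings and the array's genome build, nothing is given in the sources used here. Each of 89 columns was matched to its sample by the accession that names it, and the groups come from the genotype labels. Probe sets were named through the platform annotation and RefSeq (GRCm38.p6): 19572 of 22206 had 1 gene symbol, all in RefSeq. The other 2634, called unnamed here, had no symbol or more than 1. Some genes that the rule below also takes are not reported here.

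The 41 columns compared, and on their own the 47 trisomic columns, were quantile-normalized and fitted with limma 3.58.1 in R 4.3.3 (two-sided, eBayes defaults, litter as a random block by duplicateCorrelation, correlation 0.021 between embryos of a litter), with p-values adjusted by Benjamini-Hochberg across the whole array at 10% and no filter on signal. The series text names unpaired t-tests with the same adjustment. Embryos of a litter share a dam, and embryos were the replicates. On simulated data the fit recovered 41.8%, 80.6% and 100% of differences of 0.3, 0.5 and 1 (log2), with 21 false calls among 22206 probe sets. In that simulation embryos were independent, without a litter effect, and 67, 67 and 66 probe sets were shifted by these sizes. In the real data 47.2% of probe sets passed, so these rates of recovery and of false calls do not carry over to it.

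The members and lists were chosen with earlier results of these data known. The rule for named genes took the 15 largest differences without overlap in each direction, up to 4 passing members of each list (otherwise the smallest p), strain-variable genes, H2 genes differing by 1 or more, up to 8 split genes per colony and a few fixed genes. Other list members, and the families so marked, were named after their values were seen. Figures used matplotlib 3.10.9 in Python 3.11.15.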

Additional observations from a re-analysis of the deposited data

How the results depend on the processing

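The count of 10475 probe sets lay between 9720 and 10392 when each litter was left out in turn, and between 8699 and 12912 with no litter term, litter means, arrays centred (or centred and scaled), all 89 arrays normalized together, a filter at the lower quartile, sex as a covariate, another prior, a 5% threshold, or without replicate 24, the embryos against their sex label or the narrower arrays. It was 6726 with a filter at the median, which tests fewer probe sets, 5978 with the low-spread array, and 22125 (20 higher and 22105 lower) on the deposited values. The count of 46 without overlap and 2-fold apart was 5553 on the deposited values and otherwise 35 to 60 (43 to 52 with a litter left out). The settings without the narrower arrays, the lists without doubted arrays, the trisomic embryos without the 3 at the euploid Mmu16 level and the gene length settings were chosen after seeing the data. Splits numbered 6 and 42 in EupTs65Dn, and 10 and 65 in EupTs66Yah, at gaps of 1.5 and 0.7.

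With arrays centred on the median, list medians moved to 0.22 (cortical excitatory neurons), 0.27 (radial glia), -0.23 (maturing oligodendrocytes), -0.32 (pituitary and eye), -0.13 (retina and melanocytes), -0.19 (muscle and skin), 0.25 (hypoxia), 0.18 (unfolded protein), -0.0384 (interferon), 0.32 (ribosomal), 0.19 (oxidative phosphorylation), 0.036 (synaptic) and 0.014 (Mmu17). With arrays centred and scaled they were -0.20 (diencephalon), -0.15 (pituitary and eye), -0.00705 (retina and melanocytes), -0.072 (muscle and skin), 0.13 (immediate early), 0.028 (hypoxia), 0.089 (heat shock), -0.0201 (ribosomal), -0.15 (synaptic), -0.27 (H2), -0.051 (Mmu16) and -0.13 (Mmu17). The medians of the midbrain and hindbrain, forebrain, interneuron, intermediate progenitor, Cajal-Retzius and astrocyte lists moved by less than 1 SD between embryos in these settings, with litter means and without the arrays named above.

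Of 235 named probe sets 207 passed, and 152 of these kept call and direction in each setting. Centring on the median turned Myh3 (-0.038), Hoxb1 (-0.033), Naip5 (-0.059) and Mx1 (-0.061). On the deposited values, taken relative to the median of all probe sets, Naip5 (-0.011), Mx1 (-0.013), Dyrk1a (0.022) and Pde10a (0.038) turned. The causes were not tested. No paired analysis was possible because replicate numbers were given in accession order and no label pairs embryos across colonies.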
